A study of Mus musculus with 12 samples.

Results

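The genes described here are the adult globins *Hba-a1*, *Hba-a2*, *Hbb-bs* and *Hbb-bt*, the heme enzyme *Alas2*, the red cell membrane genes *Slc4a1* and *Epb42*, the transcription factor *Klf1* and the alpha globin chaperone *Ahsp*. They were chosen by symbol, and 8 of the 9 symbols had a row among the 47069 genes of the deposited count matrix. *Ahsp* was not analysed here. RNA came from tibia shafts of 12 male mice aged 8 weeks whose marrow had been flushed out, with 1 library per mouse and 4 mice in each of 3 groups. Jrt;Sost-het mice carried Col1a1Jrt/+, a splice-site variant that causes dominant osteogenesis imperfecta, and were heterozygous for the *Sost* null allele according to the study's description, since their labels give the *Col1a1* genotype alone. Jrt;Sost-ko mice were Col1a1Jrt/+ and Sost-/-, and WT mice carried neither allele. Both are germline alleles. All mice had a mixed FVB/C57BL6 background. WT mice came from a parallel colony of their own, and an effect of the colony cannot be told apart from one of the genotype wherever WT enters a comparison. Mice are numbered 1 to 4 within each group as a name only.

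Red cells form in the bone marrow from dividing erythroblasts. The alpha and beta globin chains assemble with heme into hemoglobin, and ALAS2 catalyses the first and rate-limiting step of heme synthesis in erythroid cells. The anion exchanger band 3 (*Slc4a1*) and protein 4.2 (*Epb42*) tie the red cell membrane to its skeleton, and KLF1 is a zinc finger activator of the adult beta globin gene and of many other erythroid genes. Mature red cells have no nucleus, reticulocytes keep globin mRNA for a short time, and erythroid cells of marrow and blood are the best known source of these transcripts in bone.

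Counts on genes ranged from 24366061 to 44418863 per library, and the factors of TMM normalization (edgeR's scaling between libraries) ranged from 0.978 to 1.02. *Sost* stood between 0.326 and 1.28 CPM (counts per 1e+06 counts of the library after TMM scaling) in Jrt;Sost-ko mice, below all mice of the other groups (26.8 to 72.3 CPM), which matches the labels. Of the 15 gene lists examined, skeletal muscle had the widest range between libraries as a fold. The summed level of 16 muscle genes ran from 54.1 CPM in Jrt;Sost-ko mouse 4 to 34872 CPM in WT mouse 4.

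Both globin pairs are near-copies, which limits what their separate counts can show. In GRCm38, *Hba-a1* (ENSMUSG00000069919) lies on the plus strand at chr11:32283511-32284465 and *Hba-a2* (ENSMUSG00000069917) on the same strand at chr11:32296489-32297298. *Hbb-bt* (ENSMUSG00000073940) lies on the minus strand at chr7:103812524-103813996 and *Hbb-bs* (ENSMUSG00000052305) on the same strand at chr7:103826534-103828096. The 429 bases that code for protein differ between *Hba-a1* and *Hba-a2* at a single base, C381T, and the 444 coding bases of *Hbb-bs* and *Hbb-bt* differ at C417T. Positions count from 1 at the A of the start codon, with the base of the first gene named first, and both changes fall on the third base of a codon. The stretches around these bases are shown because no other coding base tells the copies apart. They come from GENCODE M21, are written 5′ to 3′ on the coding strand, and carry the differing base in capitals.
Hba-a1: tgcctctctggaCaaattccttgcc
Hba-a2: tgcctctctggaTaaattccttgcc
Hbb-bs: ggctggagtggcCgctgccctggct
Hbb-bt: ggctggagtggcTgctgccctggct
Of all 100-base windows of the transcripts, 56.5% in *Hba-a1*, 74.5% in *Hba-a2*, 62.6% in *Hbb-bs* and 54.8% in *Hbb-bt* occurred identically in the other copy. The same share was 0% in *Alas2*, *Slc4a1*, *Epb42* and *Klf1*. Reads aligned to more than 1 place were not counted on genes, so globin counts rest on the parts in which the copies differ and understate globin RNA by an amount that was not measured.

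*Alas2* (ENSMUSG00000025270) lies at chrX:150547375-150570638 on the plus strand, *Epb42* (ENSMUSG00000023216) at chr2:121017891-121037072 on the minus strand and *Klf1* (ENSMUSG00000054191) at chr8:84901928-84905291 on the plus strand. *Slc4a1* (ENSMUSG00000006574) lies at chr11:102348824-102366203 on the minus strand, 381808 bp from *Sost* and 7395781 bp from *Col1a1*. It is the member nearest to the alleles that define the groups. All 8 genes are annotated as protein coding.

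Sequences upstream of the start site, from RefSeq on GRCm38.p6, were matched by symbol for 7 of the 8 genes (all but *Slc4a1*). Examples are shown as a description of the sequences, and a link between motifs and the levels in these mice was not tested. Short motifs bound by erythroid or general factors were searched on both strands of the 250 bases before each start site. The GATA motif was spelled AGATAA, with T also allowed as the first letter and G as the last. The CACCC motif, of the type bound by KLF1, was spelled CCNCNCCC. The CAAT box was spelled CCAAT, and the TATA box, which sets the start of transcription, was spelled TATAA. The GATA motif was found in 6 of the 7 sequences, *Hbb-bt* being the exception, against 26.5% of 32851 upstream sequences of the same length. The CACCC motif was found in 3 (*Alas2*, *Hbb-bs* and *Hbb-bt*) against 45.9%, the CAAT box in 5 (the 4 globins and *Klf1*) against 33.8%, and the TATA letters in 6 (all but *Klf1*) against 22.8%. The search took no account of position. In the 4 globins a TATA match on the gene's strand began between -30 and -27 from the start site. The match of *Epb42* began at -125 on the opposite strand, and those of *Alas2* at -208 and -207, far from that position. All 4 motifs together were found in *Hbb-bs* alone, against 0.545% of the upstream sequences. Copies were compared without gaps, at the single shift that gave the most identical bases. The *Hba-a1* and *Hba-a2* sequences were identical over 247 of 247 bases after a shift of 3 bases, and *Hbb-bs* and *Hbb-bt* shared 51.0% of 249 bases. Stretches that match at another shift are missed, so the value for *Hbb-bs* and *Hbb-bt* can understate their likeness. The bases of *Hba-a2* (chr11:32296242-32296488), *Klf1* (chr8:84901732-84901927) and *Alas2* (chrX:150547167-150547374) that lie outside the GENCODE gene are given on the gene's strand with complete motifs in capitals. In *Hba-a2* the capitals mark the GATA motif, the CAAT box and the TATA box, in that order. In *Klf1* they mark the GATA motif and the CAAT box, and in *Alas2* overlapping TATA matches on both strands and then the GATA motif. Some CACCC matches of *Alas2* overlap one another, and all lie outside the bases shown.
Hba-a2: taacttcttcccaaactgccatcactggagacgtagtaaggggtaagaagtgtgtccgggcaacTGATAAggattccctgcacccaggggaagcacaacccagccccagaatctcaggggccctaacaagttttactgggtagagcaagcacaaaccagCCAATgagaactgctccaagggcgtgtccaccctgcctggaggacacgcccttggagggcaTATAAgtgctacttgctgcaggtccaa
Klf1: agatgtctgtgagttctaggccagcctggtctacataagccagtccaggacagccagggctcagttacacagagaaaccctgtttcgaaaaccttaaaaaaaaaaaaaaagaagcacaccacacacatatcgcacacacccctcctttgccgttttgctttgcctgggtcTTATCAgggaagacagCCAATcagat
Alas2: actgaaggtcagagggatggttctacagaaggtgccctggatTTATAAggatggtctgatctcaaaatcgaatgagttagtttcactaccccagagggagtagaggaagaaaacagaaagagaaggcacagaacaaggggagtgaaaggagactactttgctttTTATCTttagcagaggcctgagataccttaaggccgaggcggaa
A match is a run of letters and not a measured site, and no factor binding was measured in these mice.

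Erythroid RNA remained abundant after flushing. The 8 genes took between 1.503% (Jrt;Sost-het mouse 4) and 3.03% (WT mouse 1) of all gene counts, and the 4 globins took between 1.21% and 2.47%. *Hbb-bs* ranked between first and position 5 among all genes by CPM in every library. Levels were compared between genes as CPM per kb of exons. On that scale *Hbb-bs* had 14177 ± 3014 (SD, n = 12 mice), *Hba-a1* 5375 ± 1100, *Hbb-bt* 2252 ± 508 and *Hba-a2* 1235 ± 278. The other genes followed with 526 ± 104 for *Slc4a1*, 497 ± 101 for *Alas2*, 96.7 ± 17.6 for *Klf1* and 45.0 ± 9.04 for *Epb42*. This order held in 12 of 12 mice between all neighbours except *Slc4a1* and *Alas2*, which were in this order in 10 of 12 mice, with a ratio per length of 0.987 to 1.17. In the copied globins the level per length is a lower limit, because exons shared by the copies add length but few counts. When CPM was divided instead by the number of 100-base transcript windows that occur in no other gene, a scale chosen after the values had been seen, *Hba-a2* (116 windows) was above *Hbb-bt* (273 windows) in 12 of 12 mice, with a ratio of *Hbb-bt* to *Hba-a2* of 0.711 to 0.934. On that scale *Slc4a1* was above *Alas2* in 2 of 12 mice, and the other neighbours kept their order in 12 of 12. The order of *Hbb-bt* and *Hba-a2*, and that of *Slc4a1* and *Alas2*, thus depends on the length used.

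**Figure D1:**
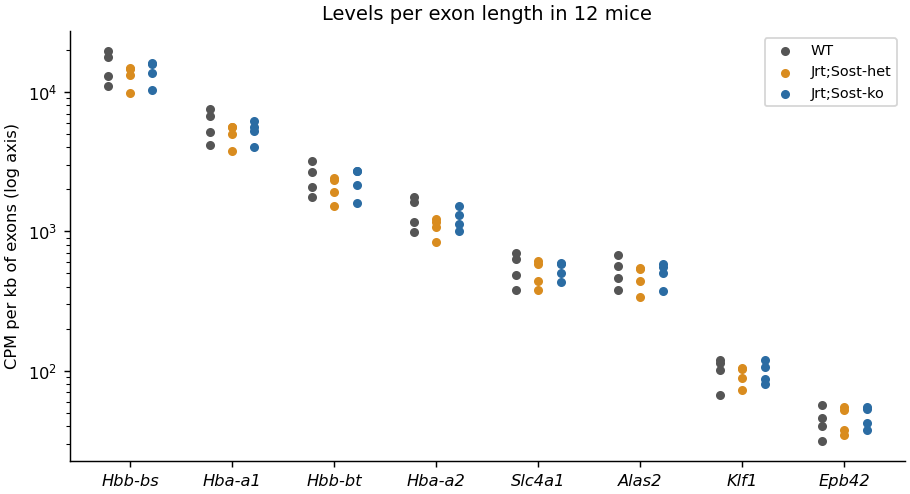
CPM per kb of exons (log axis) of the 8 erythroid genes in 12 mice, with a point per mouse and a colour per group. *Hbb-bs* was the highest in all mice (9785 to 19739), and *Slc4a1* (380 to 698) and *Alas2* (340 to 680) overlapped.

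The alpha globin genes shared the lowest mouse of each group, while their highest mouse differed in both Jrt groups. *Hba-a1* stood at 6097, 5453, 4220 and 3387 CPM in WT mice 1 to 4. The Jrt;Sost-het mice had 4537, 4551, 4033 and 3040 CPM and the Jrt;Sost-ko mice 4226, 4571, 3261 and 4999 CPM. *Hba-a2* stood at 1183, 1086, 775 and 662 CPM in WT mice. It stood at 822, 783, 710.5 and 555 in the Jrt;Sost-het group and at 749, 1015, 675 and 869 in the Jrt;Sost-ko group. WT mice 1 and 2 were the highest of all mice for both copies, WT mouse 4 lay below all Jrt mice but Jrt;Sost-het mouse 4 and, for *Hba-a1*, Jrt;Sost-ko mouse 3, and all 3 groups overlapped.

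The beta globin genes had the same lowest mice as the alpha globin genes. *Hbb-bs* stood at 15160, 13738, 9976 and 8447 CPM in WT mice 1 to 4. The Jrt;Sost-het mice had 11440.5, 11248, 10086.5 and 7515 CPM and the Jrt;Sost-ko mice 10544, 12169, 7872 and 12456 CPM. *Hbb-bt* stood at 2229, 1876, 1454 and 1235 CPM in WT mice. It stood at 1652, 1697, 1353 and 1062 in the Jrt;Sost-het group and at 1501, 1899, 1129 and 1910.1 in the Jrt;Sost-ko group. The groups overlapped for both genes, and of the Jrt mice only Jrt;Sost-het mouse 4 and Jrt;Sost-ko mouse 3 fell outside the range of the WT mice.

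*Alas2* stood at 1633, 1355, 1118 and 904 CPM in WT mice 1 to 4. The Jrt;Sost-het mice had 1320, 1289, 1066 and 818 CPM and the Jrt;Sost-ko mice 1205, 1403, 891 and 1339 CPM. *Slc4a1* stood at 3413, 3075, 2392 and 1859 CPM in WT mice. It stood at 2829, 2996, 2142 and 1861 in the Jrt;Sost-het group and at 2444, 2865, 2115 and 2898 in the Jrt;Sost-ko group. The heme enzyme and the anion exchanger thus had their lowest mice in common with the globins, and WT mouse 1 as the highest WT mouse. *Epb42* stood at 308, 249, 216 and 168 CPM in WT mice. It stood at 283, 295, 203 and 186 in the Jrt;Sost-het group and at 229, 297, 204 and 287 in the Jrt;Sost-ko group. *Klf1* stood at 182, 173, 155 and 102 CPM in WT mice. It stood at 159, 156, 136 and 111 in the Jrt;Sost-het group and at 133, 162, 122 and 184 in the Jrt;Sost-ko group. For each of the 8 genes the lowest mouse of its group was WT mouse 4, Jrt;Sost-het mouse 4 and Jrt;Sost-ko mouse 3. WT mouse 1 was the highest of the 12 mice for 7 genes and Jrt;Sost-ko mouse 4 for *Klf1*. The highest mouse exceeded the lowest by 1.80-fold (*Klf1*) to 2.13-fold (*Hba-a2*).

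**Figure D2:**
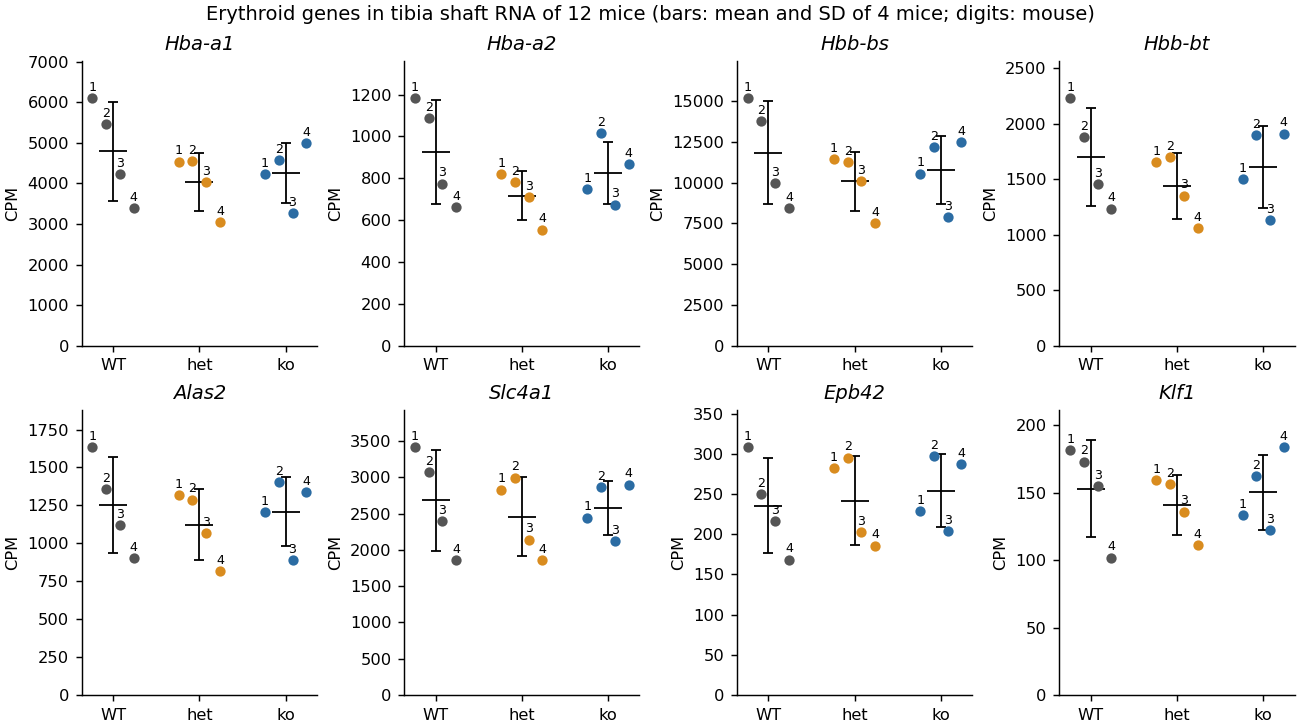
CPM of each erythroid gene in every mouse of the WT, Jrt;Sost-het (het) and Jrt;Sost-ko (ko) groups, with the mean and SD of 4 mice as bars and the mouse number beside each point. The 3 groups overlap for all 8 genes, and mouse 4 is the lowest in WT and het and mouse 3 in ko.

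The study asked whether a lack of sclerostin from birth improves bone in Jrt mice, and the comparison of both Jrt groups gives the RNA difference that goes with loss of the remaining *Sost* allele. For the erythroid genes, mean levels in Jrt;Sost-ko mice were slightly above those in Jrt;Sost-het mice, and none passed the test. *Hbb-bs* averaged 10760 ± 2102 CPM (SD, n = 4) against 10072 ± 1807, a log2 fold change of 0.10 with a standard error of 0.19 (edgeR quasi-likelihood test, Benjamini-Hochberg adjusted p = 0.941). The fold change furthest from 0 was that of *Hba-a2*, 827 ± 149 against 718 ± 118 CPM (log2 fold change 0.21, standard error 0.16, adjusted p = 0.901). All 8 fold changes were above 0, against 50.4% of the 16739 genes tested, with a median log2 fold change of 0.10 beside 0.0013 over all genes. All 8 passed the filter on low counts in every comparison. In edgeR 0 of 8 genes were called, against a background of 0.00597%, and 0 had an unadjusted p under 0.05, against 5.02% of all genes. DESeq2 and limma-voom also called 0, with 0 at an unadjusted p under 0.05. Groups were separated for 0 of the 8 genes, against 3.2% of all genes. Without Jrt;Sost-het mouse 4, 3 of the 8 fold changes were above 0 and the median was -0.014, and without Jrt;Sost-ko mouse 4 it was 0.0099.

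In Jrt;Sost-het against WT mice, 7 of the 8 genes had lower means in Jrt;Sost-het mice, and none passed the test. *Hba-a2* was again furthest from 0, with 718 ± 118 against 926 ± 248 CPM (SD, n = 4), a log2 fold change of -0.36 with a standard error of 0.20 (edgeR, adjusted p = 0.999982). *Hbb-bs* had 10072 ± 1807 against 11830 ± 3141 CPM and a log2 fold change of -0.22 with a standard error of 0.23. *Epb42*, the single gene above 0, had 242 ± 55.3 against 235 ± 58.8 CPM and a log2 fold change of 0.05. The median of the 8 was -0.19 (all genes 0.0036), while 51.3% of 16775 genes were above 0. edgeR called 0 of 8 against a background of 0.0%, and 0 had an unadjusted p under 0.05 against 2.14%. DESeq2 and limma-voom also called 0, with 0 at an unadjusted p under 0.05, and 0 of 8 genes separated the groups against 1.54%. Leaving out any of the 8 mice kept the median below 0, between -0.32 without WT mouse 4 and -0.049 without WT mouse 1.

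In Jrt;Sost-ko against WT mice, 7 of the 8 genes had lower means in Jrt;Sost-ko mice, and none passed the test. *Hbb-bs* had 10760 ± 2102 against 11830 ± 3141 CPM (SD, n = 4), a log2 fold change of -0.13 with a standard error of 0.24 (edgeR, adjusted p = 0.9996). *Klf1* had 150.5 ± 27.8 against 153 ± 35.9 CPM and a log2 fold change of -0.016, and *Epb42*, the single gene above 0, had 254 ± 45.1 against 235 ± 58.8 CPM and 0.12. The median of the 8 was -0.06 (all genes -0.0030), while 49.1% of 17155 genes were above 0. edgeR called 0 of 8 against a background of 0.00583%, with 0 at an unadjusted p under 0.05 against 3.89%, DESeq2 and limma-voom gave 0 by both measures, and 0 of 8 genes separated the groups against 2.4%. The median was 0.079 without WT mouse 1, 0.047 without Jrt;Sost-ko mouse 3 and -0.19 without WT mouse 4. These comparisons share groups and are not independent of each other.

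The 95% intervals of the fold changes say how large a difference these mice leave possible. They reached from 0.796 to 1.53 over the 8 genes for the Jrt;Sost-ko beside the Jrt;Sost-het group, from 0.568 to 1.43 for Jrt;Sost-het against WT and from 0.629 to 1.47 for Jrt;Sost-ko against WT. No interval reached a 2-fold difference in either direction, and differences of the sizes within them remain possible. Exact two-sided permutation tests of single genes over 70 arrangements of the mice, which can give no p below 0.0286, gave p from 0.257 to 1 over the 24 tests.

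**Figure D3:**
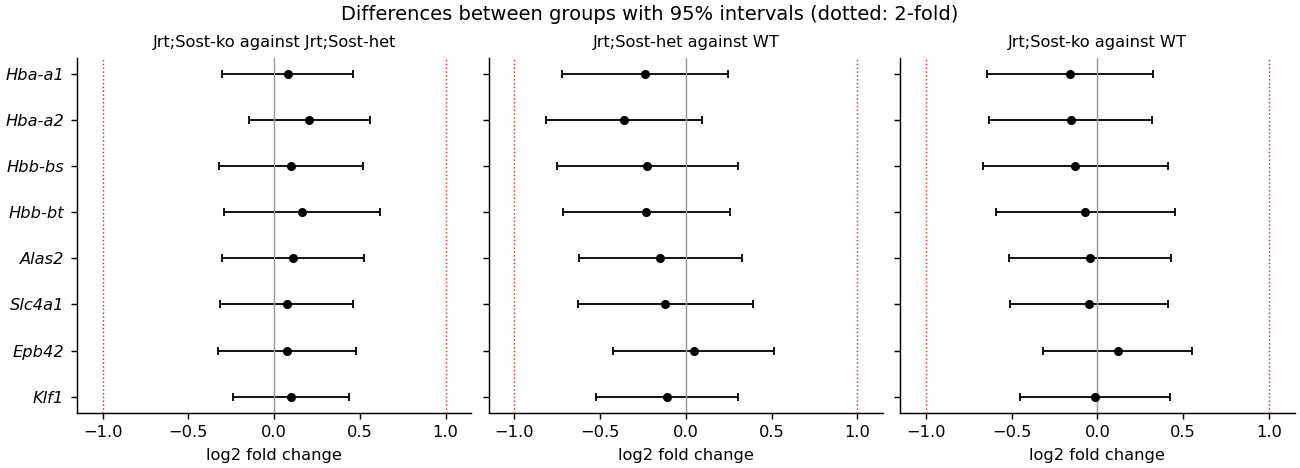
Log2 fold changes of the 8 erythroid genes with 95% intervals in the 3 comparisons (edgeR, 4 mice per group), the first group named being the numerator and dotted lines marking 2-fold. All 24 intervals include 0 and stay within 2-fold.

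Most of the variation of these genes lay between mice of the same group, and the 8 genes shared it. Over the 28 pairs of genes, Pearson's r of log2 CPM across 12 mice was 0.783 to 0.992 (median 0.935), and with group means removed 0.890 to 0.993. Across all mice the closest pair was *Hbb-bs* and *Hba-a1*, which lie on different chromosomes, and the loosest was *Hba-a2* and *Epb42*. With group means removed the loosest was *Hba-a2* and *Klf1* (0.890). All values of a mouse come from 1 library, and the correlations are a description with no test. The mean log2 CPM of the 8 genes ran from 9.81 (Jrt;Sost-het mouse 4) to 10.75 (WT mouse 1), with an SD of 0.294 over 12 mice and a pooled SD within groups of 0.315. In bulk RNA, fewer erythroid cells and less of these RNAs per cell cannot be told apart.

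The 10 genes most like this mean, by Pearson's r over 12 mice among 14669 other genes with a mean of at least 1 CPM, had r of 0.979 to 0.988. Among them were *Slc25a39* (a mitochondrial carrier for glutathione), *Eif2ak1* (the heme-regulated kinase of eIF2alpha), *Nadk2* (mitochondrial NAD kinase), *Fech* (ferrochelatase, which puts iron into heme), *Rhag* (Rh-associated glycoprotein), *March2* (a membrane ubiquitin ligase, written as a date in the deposited file), *Abcb10* (a mitochondrial transporter), *Zcchc6* (a terminal uridylyltransferase) and *Ift140* (an intraflagellar transport protein). With group means removed, 6 of them were again among the first 10, and *Adipor1*, *Fbxo34* and *Ccndbp1* were among those that joined them. Over the 14669 genes, r exceeded 0.9 for 272 (1.85%).

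Other erythroid genes varied with the 8 genes between mice, to different degrees. Of 18 further red cell membrane and skeleton genes, 14 had r above 0.9 with the mean of the 8, among them *Sptb* (beta spectrin, 608 to 993 CPM) and *Epb41* (protein 4.1, 539 to 1009 CPM), and *Aqp1* (aquaporin, 721 to 1101 CPM) had 0.891. Of 12 heme synthesis genes, 8 did, among them *Fech* (433 to 785 CPM) and *Cpox* (277 to 480 CPM), whereas *Alas1*, the enzyme of non-erythroid cells, had r = 0.17. The maturation list had 14 of 22 above 0.9, led in abundance by *Car2* (carbonic anhydrase, 977 to 1862 CPM). Only 5 of 13 transcription factors (*E2f2*, *Nfe2* and *Tal1* among them) and 2 of 9 iron genes (*Tfrc*, the transferrin receptor, and *Slc25a37*, mitoferrin) exceeded 0.9. The ferritin genes *Ftl1* and *Fth1* had r = 0.76 and r = 0.60.

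No gene of these 5 lists was called in any of the 3 comparisons (edgeR). Beside Jrt;Sost-het mice, fold changes in Jrt;Sost-ko mice were above 0 for 11 of 12 heme synthesis genes, 14 of 18 membrane genes, 19 of 22 maturation genes, 10 of 13 transcription factors and 8 of 9 iron genes, with medians of 0.07, 0.09, 0.10, 0.07 and 0.05. In Jrt;Sost-het against WT, they were above 0 for 1 of 12, 1 of 18, 1 of 22, 2 of 13 and 1 of 9 genes. In Jrt;Sost-ko against WT, they were above 0 for 3 of 12, 5 of 18, 9 of 22, 6 of 13 and 5 of 9. Some genes are on more than 1 list, and the members of a list move together between mice, so a count of directions is not a count of independent results. An unadjusted p under 0.05 was found for *Hebp1*, *Ireb2* and *Bcl11a* for the Jrt;Sost-ko beside the Jrt;Sost-het group (log2 fold changes 0.24, 0.13 and 0.24) and for no gene of these lists in the comparisons with WT. Over all genes tested that share was 5.02% for the Jrt groups, 2.14% for Jrt;Sost-het against WT and 3.89% for Jrt;Sost-ko against WT. These 3 genes were named after their values were seen.

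Embryonic globins were near absent. *Hba-x*, *Hbb-y* and *Hbb-bh1* stayed at or below 0.228 CPM in every mouse. The further beta globin entries *Hbb-bh0* and *Hbb-bh3* had 0 counts in 12 of 12 libraries. The theta globin *Hbq1b* stood between 14.8 and 29.0 CPM, with r = 0.93 to the mean of the 8 genes. Myoglobin (*Mb*), the globin of muscle, ran from 0.587 to 429 CPM with r = -0.67.

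Markers of other cells moved with the erythroid genes, in both directions. The mean log2 CPM of the dividing cell list had r = 0.86 with that of the 8 genes (Spearman's rho 0.94, r with group means removed 0.85), and its 12 genes summed to between 3178 and 4953 CPM. The neutrophil list (14 genes, 18731 to 33377 CPM) had r = 0.71, which fell to 0.52 without the 2 mice furthest from the median, and the megakaryocyte list (14 genes, 1415 to 2657 CPM) had r = 0.67 and then 0.53. The skeletal muscle list had r = -0.71 (rho -0.88), with all 16 genes below 0, and the endothelial list had r = -0.70 with 7 of 8 below 0. Without the 2 mice furthest from the median of each list, r was -0.90 for muscle and -0.73 for endothelial genes. The B cell list had r = -0.27, which turned to 0.27 without the 2 mice furthest from the median. No gene of these lists was at 0 counts in a library. Summed muscle levels were 271 to 34872 CPM in WT, 2777 to 32226 in Jrt;Sost-het and 54.1 to 14212 in Jrt;Sost-ko mice. The mice with the lowest erythroid levels of their groups, WT mouse 4, Jrt;Sost-het mouse 4 and Jrt;Sost-ko mouse 3, were also those with the highest muscle levels (34872, 32226 and 14212 CPM). Fold changes of the muscle genes were above 0 for 0 of 16 in Jrt;Sost-ko beside Jrt;Sost-het mice (median -0.98), for 9 of 16 in Jrt;Sost-het against WT (median 0.08) and for 0 of 16 in Jrt;Sost-ko against WT (median -0.92). Those of the erythroid genes were above 0 for 8 of 8, 1 of 8 and 1 of 8 in these comparisons, in that order. Neutrophil genes were above 0 for 5 of 14 in Jrt;Sost-ko beside Jrt;Sost-het mice (median -0.09). In both comparisons with WT they were above 0 for 0 of 14 (medians -0.08 and -0.17). Fold changes of the dividing cell genes were above 0 for 11 of 12 in Jrt;Sost-ko beside Jrt;Sost-het mice (median 0.07), for 0 of 12 in Jrt;Sost-het against WT (median -0.11) and for 4 of 12 in Jrt;Sost-ko against WT (median -0.04). For the macrophages of erythroblastic islands, which surround and feed erythroblasts, they were above 0 for 11 of 12, 7 of 12 and 11 of 12 genes in the same order, and the list had r = 0.56 with the 8 genes (0.36 without the 2 mice furthest from the median). For osteoblast and osteocyte genes they were above 0 for 14 of 16 in each comparison, with r = -0.42 (-0.18 with 2 mice left out in the same way). Endothelial genes were above 0 for 1 of 8, 8 of 8 and 6 of 8, B cell genes for 9 of 12, 11 of 12 and 11 of 12, and megakaryocyte genes for 5 of 14, 11 of 14 and 7 of 14. Of all these lists, *Sost* on the osteoblast and osteocyte list was the single gene called, in both comparisons that involve Jrt;Sost-ko mice (edgeR). The part of these cells in the erythroid levels was not tested.

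**Figure D4:**
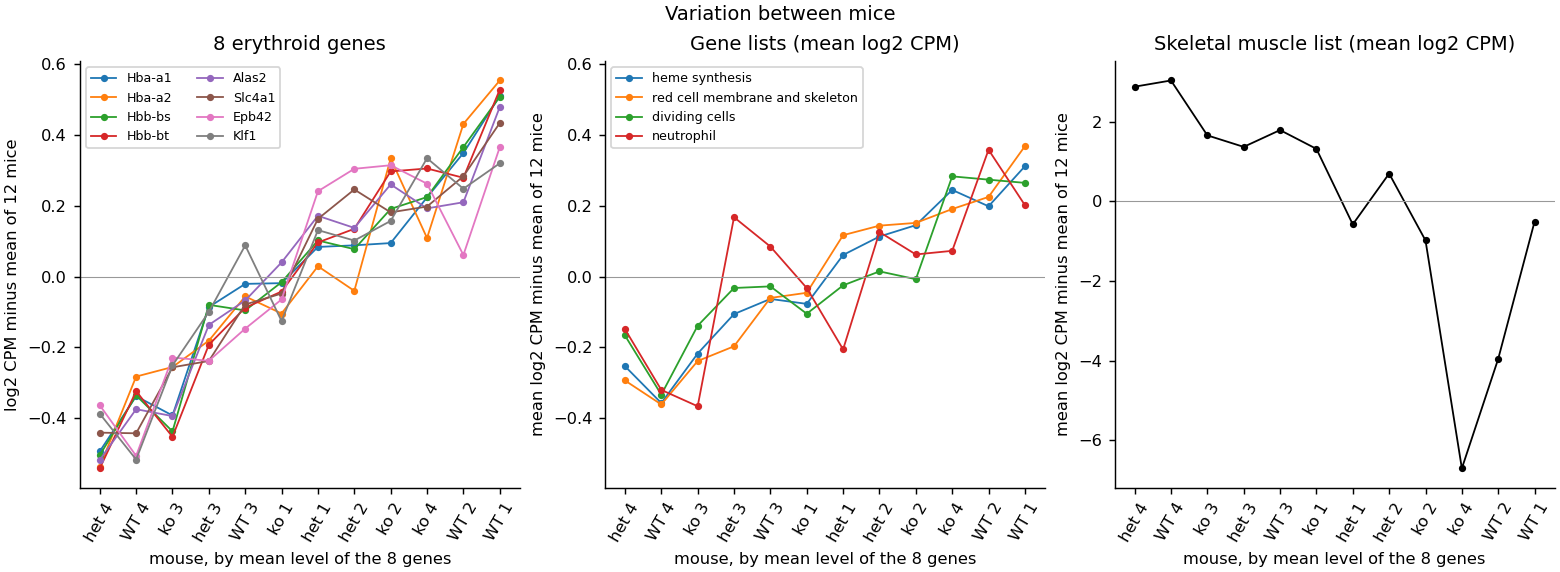
Log2 CPM of the 8 erythroid genes (left), mean log2 CPM of 4 gene lists (middle, same axis) and of the skeletal muscle list (right, its own axis), each minus its mean over 12 mice, with mice ordered by the mean of the 8 genes. Erythroid lines run together from Jrt;Sost-het mouse 4 to WT mouse 1, and muscle is highest in the 2 mice at the left.

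Reads aligned to more than 1 place, which hold the globin reads that fit both copies, numbered 28.7 (Jrt;Sost-ko mouse 3) to 38.2 (WT mouse 1) per 100 gene counts. Their number had r = 0.90 with the mean of the 8 genes (rho 0.96), and the total of gene counts had r = 0.13, which turned to -0.083 without the 2 mice furthest from the median. Which genes these reads came from was not analysed here.

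Ratios of counts within a library show how far the genes kept their proportions while the total varied about 2-fold. They compare mice and not genes, because counts are not per length, and they were computed after the levels had been seen. Beta globin counts per alpha globin count lay between 2.29 and 2.52 in 12 mice. *Hbb-bt* made up 11.8% to 13.5% of beta counts and *Hba-a2* 14.7% to 18.2% of alpha counts. Per 1000 beta globin counts there were 86.8 to 100.8 of *Alas2*, 187 to 235 of *Slc4a1*, 15.98 to 22.8 of *Epb42* and 10.5 to 13.6 of *Klf1*.

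Of 21 pairs of a ratio and a comparison, 2 had no overlap between groups. The *Hba-a2* share of alpha counts was 16.2%, 16.6%, 15.5% and 16.4% in WT mice 1 to 4 and 15.3%, 14.7%, 15.0% and 15.4% in Jrt;Sost-het mice. Every Jrt;Sost-het mouse was below every WT mouse. Of the 16775 genes tested, 1.32% showed such a separation in either direction when divided by alpha globin counts. *Hba-a2* is itself part of the alpha counts, unlike nearly all of those genes, so that percentage is not a like background for its share. In Jrt;Sost-ko mice the share was 15.1%, 18.2%, 17.1% and 14.8%, so that mice 2 and 3 were above all WT mice and mice 1 and 4 below them. *Epb42* per 1000 beta counts was 17.7, 15.98, 18.9 and 17.4 in WT mice. It stood at 21.6, 22.8, 17.7 and 21.7 in the Jrt;Sost-het group and at 19.0, 21.1, 22.7 and 19.97 in the Jrt;Sost-ko group. All Jrt;Sost-ko mice were above all WT mice, the nearest being 18.98 and 18.89, which 0.513% of 17155 genes showed in either direction against beta globin counts. For the other comparisons, 0.352% and 0.532% of genes separated Jrt;Sost-ko from Jrt;Sost-het mice per beta and per alpha globin count, 0.858% separated Jrt;Sost-het from WT mice per beta count, and 0.81% separated Jrt;Sost-ko from WT mice per alpha count. Both ratios were picked after their values were seen and were given no test. The *Hba-a2* share also depends on how reads were assigned to near-identical copies.

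**Figure D5:**
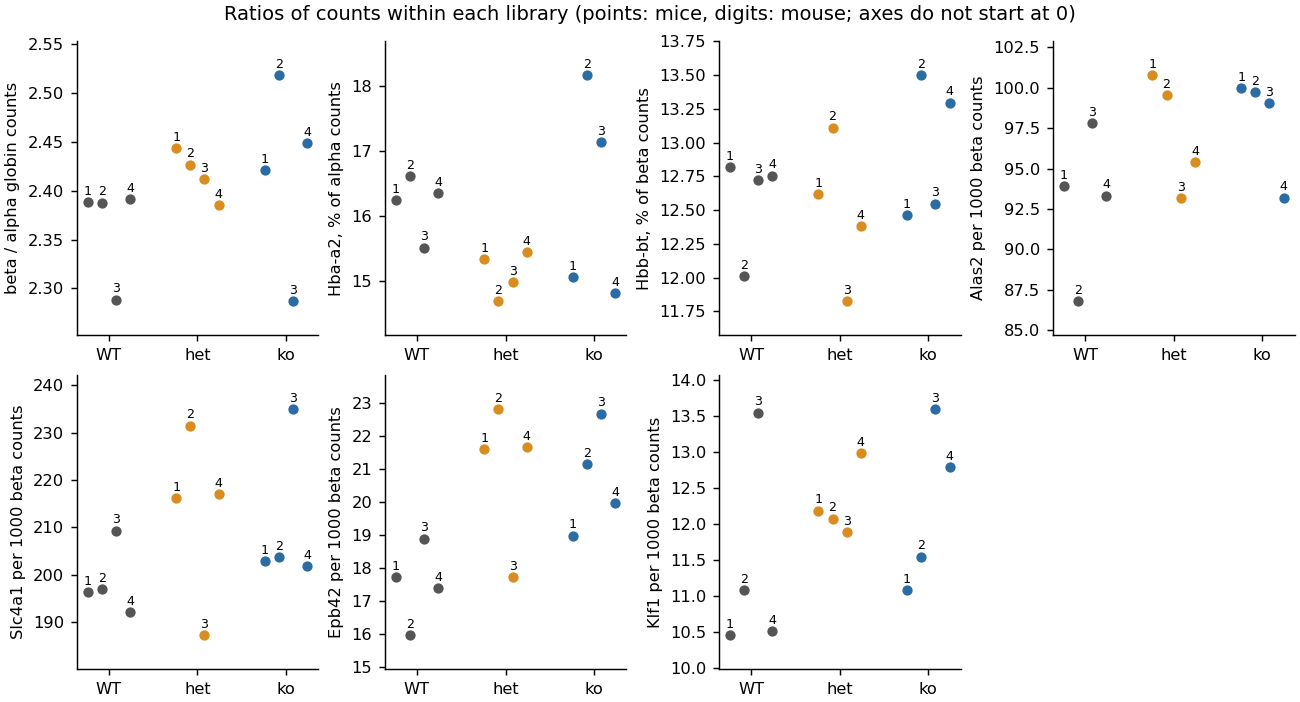
Ratios of counts within each library by group, with a point and number per mouse and axes that do not start at 0. The *Hba-a2* share of alpha counts separates Jrt;Sost-het (14.7% to 15.4%) from WT mice (15.5% to 16.6%), and *Epb42* per 1000 beta counts separates Jrt;Sost-ko (19.0 to 22.7) from WT mice (15.98 to 18.9).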

How the data were processed

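RNA from the tibia shafts of 12 mice, with 1 library per mouse, was sequenced as read pairs. The authors aligned reads to GRCm38 with STAR and deposited raw counts for 47069 Ensembl genes, without normalization. Their processing notes also name bcl2fastq 2.20, Cufflinks, Cuffdiff and DESeq. The counting tool, its strand setting and the annotation release are not given in the sources used here, so reads of overlapping antisense genes may be mixed. In all 12 libraries the matrix held the same counts as the deposited table of that mouse. Those tables also gave the reads outside genes, 9.54% to 11.2% of uniquely aligned reads, which stayed out of library sizes. The authors' comparison tables hold fold changes and p-values with 96 further columns of single mice, and none were used.

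Comparisons used only the 8 mice concerned. edgeR 4.0.16 under R 4.3.3 ran filterByExpr, TMM scaling, estimateDisp, glmQLFit and glmQLFTest, with p-values Benjamini-Hochberg adjusted over all genes tested, with a threshold of 0.05. CPM was normalized over 12 libraries, and log2 CPM used a prior count of 2. The main test was edgeR in place of the authors' DESeq. Alternatives were DESeq2 1.42.0, limma 3.58.1 (voom with sample weights), other scalings and filters, a single fit of 12 mice, summed copies and leaving out each mouse. DESeq2 was run on the genes that edgeR tested. That setting was chosen after a run on every gene with a count had been seen, which is given as an added alternative. The p-values of edgeR set a difference between groups against the spread between these mice, estimated with information shared across genes.

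Gene positions, exon lengths and coding sequences come from GENCODE M21 (46488 of 47069 identifiers found). Named genes are the members, up to 4 of the most abundant genes of each list, the 10 genes most like the members (also with group means removed), *Sost* and any gene of a list that was called. Genes outside this rule (*Alas1*, *Tal1*, the embryonic globins, *Hbb-bh0*, *Hbb-bh3*, *Hebp1*, *Ireb2* and *Bcl11a*) were named after their values were seen. The members and lists were chosen with earlier results of these data known. Some genes that the rule names are not reported here.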

Additional observations from a re-analysis of the deposited data

Results flagged for a closer look

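In groups of 4 mice, 4 of 45 sets of values had a mouse far from the other 3 (Dixon's ratio of the gap to the range above its 95% limit), where chance gives about 2.25. All 4 were ratios within a library, and none was the level of a gene. Beta globin counts per alpha globin count were lowest in WT mouse 3, with 2.29 against 2.39 in each of the other 3 WT mice (Dixon's ratio 0.967). *Hbb-bt* made up 12.01% of beta counts in WT mouse 2 against 12.7% to 12.8% in the other WT mice (0.880). *Slc4a1* per 1000 beta counts was 235 in Jrt;Sost-ko mouse 3 against 202 to 204 in the other Jrt;Sost-ko mice (0.942). *Alas2* per 1000 beta counts was 93.2 in Jrt;Sost-ko mouse 4 against at least 99.0 in the other Jrt;Sost-ko mice (0.859).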

How the results depend on the processing

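No erythroid gene passed the threshold in any comparison under 11 alternatives and 8 left-out mice each, with a lowest adjusted p of 0.525 (edgeR, Jrt;Sost-het against WT without WT mouse 4, where 1 gene had an unadjusted p under 0.05). Over all genes the number called depended on the tool. For the Jrt;Sost-ko beside the Jrt;Sost-het group, edgeR called 1, DESeq2 15, DESeq2 on every gene with a count 18 and limma-voom 0. For Jrt;Sost-het against WT these were 0, 0, 4 and 0, and for Jrt;Sost-ko against WT 1, 14, 18 and 2. The run on every gene with a count was added after the data were seen. Medians of the 8 genes lay between 0.07 and 0.10, between -0.19 and -0.13 and between -0.09 and -0.05 in the 3 comparisons under the alternatives, and between -0.014 and 0.20, -0.32 and -0.049 and -0.19 and 0.079 when a mouse was left out. Of 444 values of single genes under alternatives, 26 had the other sign, all of them with 1 mouse left out. For the Jrt;Sost-ko beside the Jrt;Sost-het group, the log2 fold changes then ranged from -0.016 to 0.22 (*Hbb-bs*), -0.030 to 0.19 (*Hba-a1*), -0.012 to 0.23 (*Alas2*), -0.035 to 0.18 (*Slc4a1*), -0.028 to 0.18 (*Epb42*) and -0.018 to 0.18 (*Klf1*). For Jrt;Sost-het against WT, they ranged from -0.27 to 0.012 (*Slc4a1*) and -0.091 to 0.20 (*Epb42*). For Jrt;Sost-ko against WT, they ranged from -0.20 to 0.084 (*Hbb-bt*), -0.26 to 0.0081 (*Hbb-bs*), -0.17 to 0.11 (*Alas2*), -0.19 to 0.083 (*Slc4a1*), -0.013 to 0.27 (*Epb42*) and -0.17 to 0.075 (*Klf1*). A fold change of 1 lies within every 95% interval of the main edgeR fits, the only fits for which intervals are given. Each gene had at least 2690 counts in every library, so counting error is small beside the spread between mice, and 4 mice per group limit the comparisons. No paired analysis was possible because the mouse numbers come from the order of the labels and pair no mice across groups.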
